A study of Mus musculus with 4 samples.

Results

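The genes described here are 8 genes of bile acid and cobalamin uptake in the ileum, out of 27514 genes counted in all 4 libraries of the study. They were chosen by name, for their roles in uptake, and their levels were read per library in cells gated as enterocytes, immature absorptive cells and adenoma cells. The bile acid genes are Slc10a2, which carries bile acids in across the apical membrane, Fabp6, which binds them in the cytosol, Slc51a and Slc51b, the subunits of the basolateral exporter, Nr1h4, the nuclear receptor that senses them, and Fgf15, the hormone that reports their uptake to the liver. Cubn is the apical receptor for cobalamin bound to intrinsic factor, and Osr2 encodes a zinc finger transcription factor. Bile acids are absorbed by active transport mainly in the terminal ileum, where enterocytes also take up cobalamin. There, bile acids that bind Nr1h4 raise Fabp6, Slc51a, Slc51b and Fgf15, and Fgf15 lowers bile acid synthesis in hepatocytes. Enterocytes of the duodenum and jejunum instead are rich in genes of dietary fat, retinol and iron uptake, such as Fabp1, Rbp2 and Cybrd1.

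The study compared adenomas of the small intestine from C57BL/6 mice of 2 groups at 11 weeks. Both groups carried the ApcMin/+ allele, which gives rise to the adenomas. The group ApcMin was Lef1 +/+, and the group VApcMinL was Lef1 fl/fl with Villin-Cre, which recombines Lef1 constitutively in the intestinal epithelium and not in immune or stromal cells. Each group had 2 single-cell libraries, 1 made with version 2 and 1 with version 3 of the 10x Genomics 3′ kit (kit 2 and kit 3 below), each from a pool of tumors of like size and location dissociated with no sort. All 4 libraries are labelled male. Where 4 values follow each other below, they are those of the libraries labelled ApcMin and VApcMinL of kit 2 and then of the libraries labelled ApcMin and VApcMinL of kit 3. With 1 library per group and kit, the kit, the mice and the stretch of intestine that the tumors came from cannot be told apart, and no label says that the libraries of a group came from separate mice, so that p-values measure the spread between libraries.

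Promoters of 6 of the 8 genes were found in the RefSeq promoter table (build GRCm38.p6), and those of Fgf15 and Osr2 are named only. The stretches of 2 of them are shown, because Fabp6 carried the widest difference between libraries and Slc51b held the same motif. Capitals mark the match to it, and both genes lie on the minus strand. The letters searched were chosen after the sequences had been seen.
Fabp6, chr11:43601563-43601812: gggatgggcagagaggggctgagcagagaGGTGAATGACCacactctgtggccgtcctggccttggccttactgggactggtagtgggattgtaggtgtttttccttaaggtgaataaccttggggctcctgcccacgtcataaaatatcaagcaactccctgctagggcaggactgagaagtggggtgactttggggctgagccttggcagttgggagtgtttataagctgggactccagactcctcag
Slc51b, chr9:65422949-65423023: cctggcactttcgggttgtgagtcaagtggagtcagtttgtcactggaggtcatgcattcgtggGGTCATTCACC
The Fabp6 stretch ends at the base before the RefSeq start. The Slc51b stretch ends upstream of the RefSeq start, at the end of the match. It was cut there because the GENCODE vM21 gene begins farther upstream, at base 65422955. That base lies within the match, so that part of the match is inside the GENCODE gene. The inverted repeat GGTNANTGACC, searched on both strands, is a form of the response element known for Nr1h4 and its partner Rxra. It lay in 2 of the 6 promoters (300 bases each), at 221 bases upstream of the RefSeq start in Fabp6 and, on the other strand, at 186 bases upstream in Slc51b. Of all 32851 promoters of that length, 45 (0.137%) held it. A match describes letters in this window and not binding.

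The 4 libraries held between 44660305 and 128247396 UMIs and between 2071 and 4217 cells with at least 2000 UMIs and no more than 20% mitochondrial UMIs. The limit on mitochondrial UMIs removed 61.6% of barcodes of the kit 3 library labelled ApcMin and at most 26.5% in the others. No more than 9 cell barcodes were shared by any pair of libraries. The gates, which hold none of the 8 genes, gave between 318 and 1045 enterocytes, 167 and 389 immature absorptive cells, and 379 and 2247 adenoma cells per library. They are ranges of a score and not types: between 7.75% and 44.5% of the cells of a class lay under 2 times the score that admitted them, with the highest share in the adenoma cells of the kit 2 library labelled ApcMin. Fabp1, a fatty acid binding protein of enterocytes that was in no gate, stood at 92.3 to 201 CPM (UMIs of a gene for 1000000 UMIs of the class) in adenoma cells and at 14780.0 or more in enterocytes. The summed enterocyte markers had medians of 133 to 225 UMIs per 10000 in enterocytes, 10.7 to 19.2 in immature cells and 1.83 to 3.29 in adenoma cells. Lef1, the targeted gene, went against the labels in kit 2: adenoma cells held 7.84 CPM of it in the library labelled ApcMin and 25.9 in the one labelled VApcMinL, beside 33.6 and 21.5 in kit 3. The sources do not place the recombined exons against the 3′ tags, so that this level checks nothing about the deletion. Xist was counted at 346 CPM or more in immune cells of both libraries labelled VApcMinL and at 0.474 or less in the others, which goes against the male label of the former. Group names below are therefore those of the labels.

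Fabp6 was the member whose level differed most between libraries. In enterocytes it stood at 0.306, 0.208, 1640.2 and 1205 CPM, from 1, 2, 45804 and 15285 UMIs. Both kit 3 libraries lay far above both kit 2 libraries. The summed counts gave a ratio of 6455 between kits (exact 95% interval 2209 to 31301, for counting error only). Slc10a2, the apical carrier, stood at 0.918, 0.312, 37.8 and 40.8 CPM, from 3, 3, 1055 and 517 UMIs, a ratio of 83.1 (38.1 to 226.7). Fgf15 stood at 0, 0.104, 7.73 and 3.15, from 0, 1, 216 and 40 UMIs, where a count of 0 allows up to 0.918 CPM, and the ratio of 81.1 had an interval of 14.4 to 3218. These 3 genes of apical entry, cytosolic binding and hormone output were thus near 0 in kit 2 enterocytes and present in both kit 3 libraries.

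The kits were compared after these values had been seen, with edgeR's quasi-likelihood test on summed counts and Benjamini-Hochberg adjustment over all genes. In enterocytes 3 of the 8 genes passed, all higher in kit 3, beside 1.33% of all 11003 genes tested that differed and 0.618% that were higher. They were Fabp6 (log2 fold change 12.31 ± 0.54 SE, adjusted p = 0.00113), Slc10a2 (6.21 ± 0.43, adjusted p = 0.00262) and Fgf15 (5.58 ± 0.87, adjusted p = 0.0392). The fits rest on counts of 0 to 3 in kit 2, and are no bound on the fold. The call of Fgf15 was lost with cells of at least 5000 UMIs (adjusted p = 0.0502), with stricter gates (adjusted p = 0.0862) and with scaling by total counts (adjusted p = 0.0572). The other 5 genes did not pass, with log2 differences between 0.14 for Nr1h4 and 1.06 for Cubn, and adjusted p-values between 0.192 and 0.817. Cubn passed with no filter on low counts (adjusted p = 0.00549), with a mitochondrial limit of 10% (log2 3.38, adjusted p = 0.0113) and with thinned cells (adjusted p = 0.0291), and Slc51a with thinned cells (adjusted p = 0.0323). Slc51a stood at 169.8, 125, 266 and 306 CPM and Slc51b at 115, 122, 170.02 and 166, so that the exporter was counted in every library. Nr1h4 lay within 23.4 and 29.1 in all 4.

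In immature absorptive cells, 3 of the 6 genes tested were higher in kit 3, beside 11.9% of all genes that differed and 6.18% that were higher. Fabp6 stood at 4.34, 4.57, 326 and 329 CPM (log2 6.02 ± 0.19, adjusted p = 2.04e-05, edgeR), and the libraries of a kit lay close to each other. In kit 3, however, 3 of 167 and 13 of 286 cells held 95.8% and 96.1% of these UMIs. The closeness of those 2 libraries thus rests on few cells and is no measure of the level of a typical cell. Slc10a2 stood at 0.173, 0.12, 2.95 and 5.73 (log2 4.63 ± 0.75, adjusted p = 0.0101). Slc51a stood at 25.0, 20.4, 55.9 and 45.9 (log2 0.99 ± 0.15, adjusted p = 0.00789), a call that was lost with cells thinned to 2000 UMIs (log2 0.73 ± 0.32, adjusted p = 0.211). Scaling by total counts in place of TMM (the trimmed-mean scaling of edgeR), added after the data had been seen, moved the median of all genes by 0.18 on the log2 scale here and the share of calls that were higher from 52.1% to 76.6%. Fgf15 and Cubn were too low there to be tested. In adenoma cells none of the 7 genes tested passed, beside 0% of all genes in edgeR's quasi-likelihood test, with 1697 genes at an unadjusted p under 0.05 and 420 called by DESeq2. Fabp6 in adenoma cells stood at 1.41, 0.224, 67.6 and 20.9 CPM, with 83.0% and 70.5% of the kit 3 UMIs in 3 and 1 cells. Its log2 difference was 5.67 ± 0.36, with an adjusted p of 0.107 in edgeR. It passed with no filter on low counts (adjusted p = 0.00495), with thinned cells (adjusted p = 0.0313) and in DESeq2 (adjusted p = 5.23e-22).

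**Figure D1:**
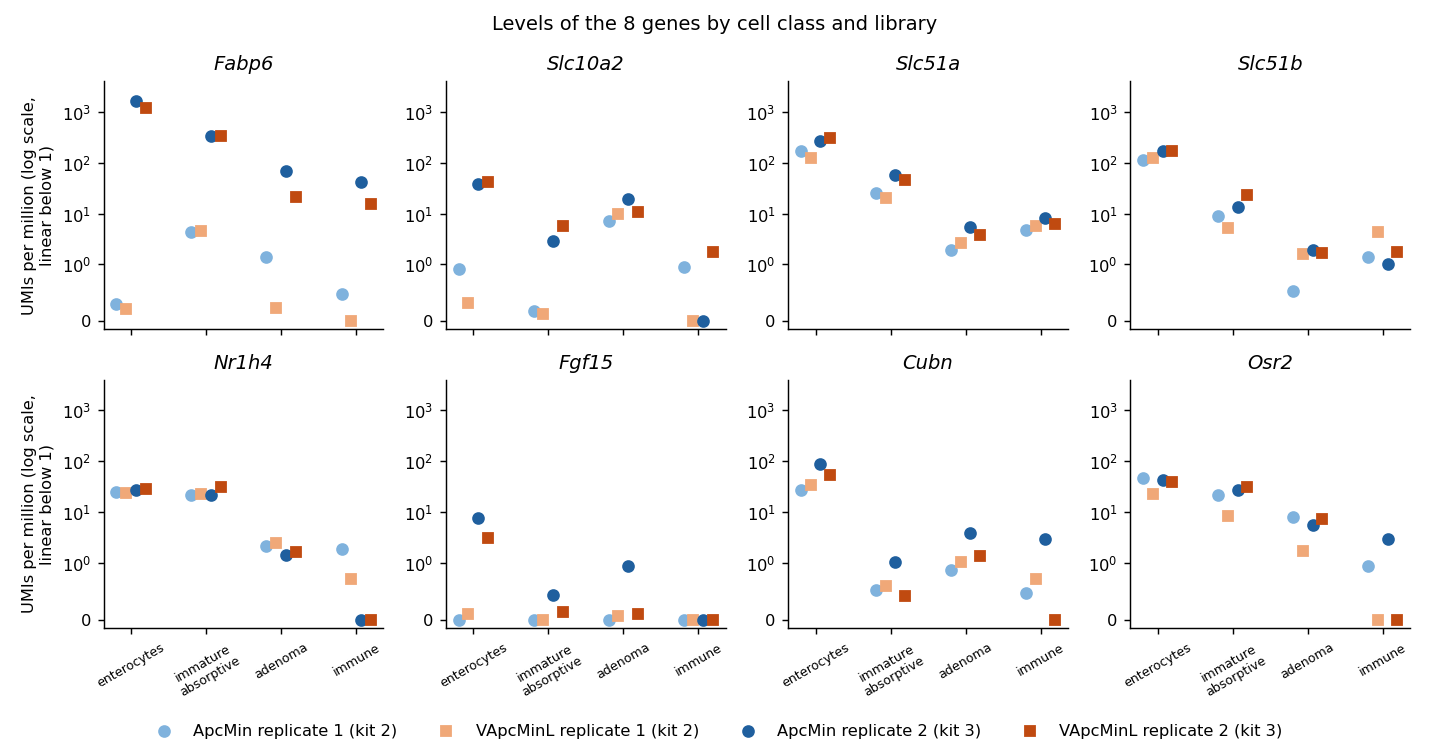
Level of each of the 8 genes in CPM (vertical axis, log scale, linear below 1) in 4 cell classes (horizontal axis), with 1 point per library. Immune cells are shown for comparison. Fabp6, Slc10a2 and Fgf15 in enterocytes separate by kit, Slc51a lies at 125 to 306 in enterocytes of all 4 libraries, and Slc10a2 in adenoma cells stands at 7.10 to 19.7 in every library.

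Fabp6 was also counted outside epithelial cells. In barcodes with 1 to 100 UMIs, Fabp6 stood at 1.39, 1.63, 505 and 309 CPM, so that both kit 3 libraries lay above both kit 2 libraries, as in enterocytes. In immune cells, which should lack it, Fabp6 stood at 0.474, 0, 42.4 and 15.1. Fabp6 in adenoma cells of kit 3 was 1.59 times (interval 1.17 to 2.22) and 1.38 times (0.860 to 2.38) that of the immune cells of the same library. In immature absorptive cells of kit 3 it was 7.68 times (5.66 to 10.7) and 21.7 times (13.6 to 37.4) the immune level. Few cells carried these ratios. Of the adenoma cells, 3 and 1 held 83.0% and 70.5% of the Fabp6 UMIs of their class. Of the immature cells, 3 and 13 held 95.8% and 96.1%. The intervals are for counting error of UMIs only and do not cover the spread between cells. Immune cells of kit 3 were shallower than adenoma cells, with medians of 5144 and 4026 UMIs against 33800 and 24948. Whether immune cells give the background of the other classes was not tested. Slc10a2 in immune cells came to 2, 0, 0 and 2 UMIs, and Fgf15 to 0 in all 4.

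Fabp6 in kit 3 enterocytes sat in a small set of cells. Cells with at least 3 Fabp6 UMIs and 500 CPM, a rule set after the values were seen and called Fabp6-rich here, made up 101 of 1045 enterocytes (9.67%) in the library labelled ApcMin and 63 of 699 (9.01%) in the one labelled VApcMinL. They held 99.2% and 99.3% of the Fabp6 UMIs of the class. Kit 2 enterocytes had 0 such cells of 318 and of 750. In the richest cell of each kit 3 library, Fabp6 alone gave 11.1% and 9.49% of all UMIs. Just under the rule, between 200 and 500 CPM, lay 16 and 9 enterocytes, and between 500 and 1000 lay 3 and 7. The rich cells of the library labelled ApcMin were shallower than its other enterocytes, with a median of 6589 against 27436 UMIs, whereas those of the library labelled VApcMinL had 16399 against 16978. Fabp6-rich cells were also 3 and 13 of the immature absorptive cells, where they held 95.8% and 96.1% of the Fabp6 UMIs, and 3 and 1 of the adenoma cells, where they held 83.0% and 70.5%.

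**Figure D2:**
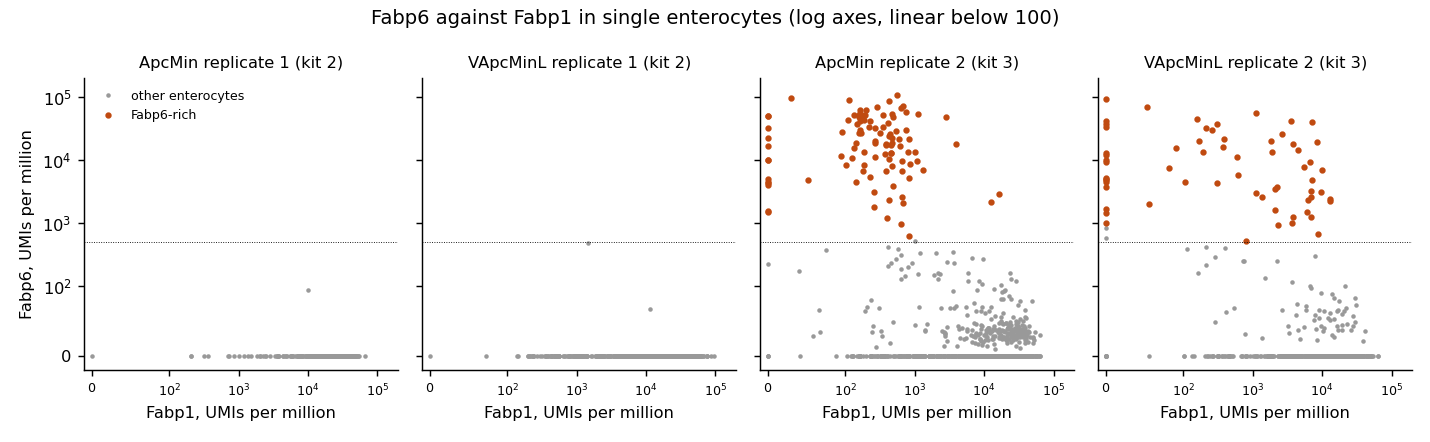
Fabp6 (vertical axis) against Fabp1 (horizontal axis), both in CPM on log axes that are linear below 100, with 1 point per gated enterocyte and 1 panel per library. The dotted line is the 500 CPM of the rule, and the 101 and 63 Fabp6-rich cells of the kit 3 libraries lie mostly to the left of the other enterocytes, at lower Fabp1.

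The other 7 genes were higher in the Fabp6-rich cells than in the other enterocytes of both kit 3 libraries. Because the cells were split by Fabp6 within a library, these are values with no test. The share of all genes that were higher in the rich cells was not computed. Slc10a2 stood at 739.5 against 2.89 CPM in the library labelled ApcMin, and at 398 against 10.0 in the one labelled VApcMinL, ratios of 255 and 39.7. Fgf15 had ratios of 235 and 34.8. The genes that every library held showed smaller ratios: 5.16 and 3.1 for Slc51a, 4.07 and 3.32 for Slc51b, 3.58 and 2.48 for Nr1h4, 5.22 and 3.64 for Cubn, and 2.65 and 2.95 for Osr2. The rich cells held 978 of 1055 and 400 of 517 Slc10a2 UMIs of the enterocytes and 199 of 216 and 30 of 40 Fgf15 UMIs, but 1519 of 7439 and 818 of 3886 Slc51a UMIs. After each cell had been thinned to 2000 UMIs, 64 of 72 enterocytes with Slc10a2 (88.9%) also held Fabp6 in the library labelled ApcMin and 32 of 43 (74.4%) in the one labelled VApcMinL.

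Genes listed for the same tissue moved with Fabp6 within these libraries. The counts of list genes below have no share over all genes beside them, since none was computed for this split. Of 12 other genes of the distal small intestine, 11 were higher in the Fabp6-rich cells of both libraries, 10 of them by more than 2-fold, with median log2 differences of 2.24 and 1.91. Tmigd1 had ratios of 183 and 36.5, and Mep1a, a meprin subunit of the brush border, 14.6 and 10.5, among the widest of the 12. The 6 with the highest mean level were Clec2h (2.45 and 2.55), Muc3 (1.71 and 1.13), Ggt1 (1.65 and 0.904), Dpep1 (2.82 and 2.33), Slc34a2 (6.01 and 4.62) and Naaladl1 (7.06 and 5.16). Of 14 genes of the proximal small intestine, 12 were lower in both, with medians of -2.28 and -1.09. Fabp1 had ratios of 0.0786 and 0.221, and Lct, the lactase gene, 0.0943 and 0.297. Ces2e was higher in both (1.25 and 1.15), and Slc40a1 went different ways (1.09 and 0.526). Of the cobalamin genes, Amn, the partner that anchors Cubn at the membrane, had ratios of 2.47 and 2.24, and 7 of 15 with enough UMIs were higher and 4 lower in both. Of 16 other bile acid genes, 7 were higher and 5 lower in both. The xenobiotic exporter Abcb1a had ratios of 4.02 and 2.21, and Hnf4a 1.72 and 1.31. Vdr had 1.17 and 1.01, Abcc2 1.04 and 0.839, Gata6 0.659 and 0.682, and Gata4 0.162 and 0.542.

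**Figure D3:**
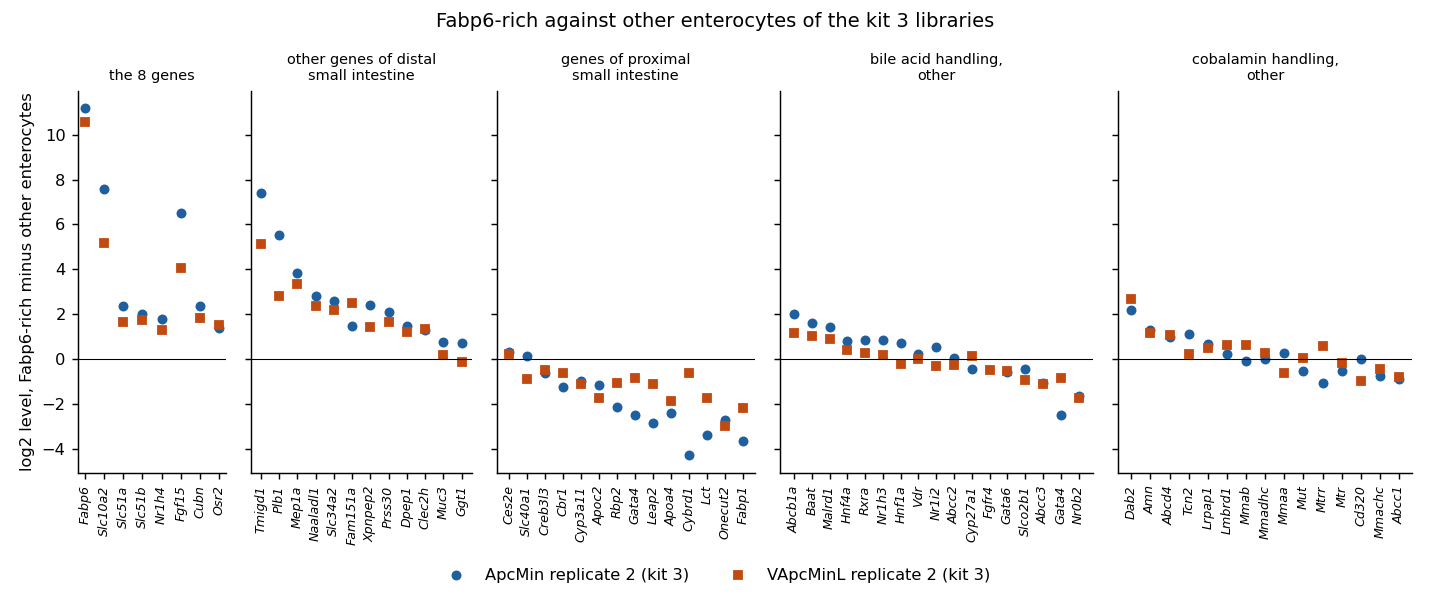
Difference in log2 level between Fabp6-rich and other enterocytes (vertical axis, CPM with 1 added) for each gene of 5 lists (horizontal axis), with 1 point for each of the 2 kit 3 libraries. All 8 genes lie above 0, 11 of the 12 other distal genes do in both libraries, and 12 of the 14 proximal genes lie below 0 in both. No share over all genes was computed for this split.

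Across cell classes, 7 of the 8 genes were lower in adenoma cells than in enterocytes, beside 79.7% of all 13266 genes tested that changed and 37.1% that were lower. The test was edgeR's quasi-likelihood test on 12 sums with library as a block, and its Benjamini-Hochberg adjusted p-values are given. Changes are relative to TMM scaling: scaling by total counts moved the median of all genes by 0.68 on the log2 scale for adenoma cells against enterocytes, 0.46 for immature cells against enterocytes and 0.22 for adenoma against immature cells, and the share of calls that were higher from 53.5% to 72.7%, from 46.0% to 67.6% and from 54.0% to 70.2%. Both exporter subunits showed the widest differences: Slc51b fell from a mean of 143 ± 28.7 CPM (SD, n = 4) to 1.42 ± 0.603, a log2 change of -7.43 ± 0.28 (edgeR adjusted p = 2.91e-10). Slc51a fell from 217 ± 83.8 to 3.45 ± 1.48 (log2 -6.69 ± 0.16, edgeR adjusted p = 1.04e-11). In each library the adenoma level lay below every enterocyte level, and its mean was no higher than the 6.21 ± 1.40 (Slc51a) and 2.14 ± 1.49 (Slc51b) of immune cells. Cubn fell from 50.8 ± 26.9 to 1.82 ± 1.46 CPM (log2 -5.62 ± 0.17, edgeR adjusted p = 3.50e-11), with 1.06 ± 1.35 in immune cells. Nr1h4 fell from 26.3 ± 2.56 to 1.93 ± 0.489 (log2 -4.52 ± 0.21, edgeR adjusted p = 1.89e-09). Osr2 fell from 38.1 ± 11.0 to 5.77 ± 2.90 (log2 -3.47 ± 0.21, edgeR adjusted p = 1.37e-08), and was the member of these 5 that kept most of its level. Fabp6 changed by -5.19 ± 0.87 and Fgf15 by -4.41 ± 0.50 on the log2 scale (edgeR adjusted p = 0.000132 and 1.38e-05), a change carried by the kit 3 libraries: in kit 2 Fabp6 stood at 0.306 and 0.208 in enterocytes and 1.41 and 0.224 in adenoma cells.

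By mean level over the 4 libraries, immature absorptive cells lay between enterocytes and adenoma cells for Fabp6, Slc51a, Slc51b, Nr1h4 and Osr2. Slc10a2, Fgf15 and Cubn had their lowest mean in the immature class. Against enterocytes, 7 of the 8 were lower, beside 63.6% of all genes that changed and 34.3% that were lower. Nr1h4 stood close to its enterocyte level there, with 21.9, 22.4, 21.7 and 31.8 CPM against 25.1, 23.4, 27.8 and 29.1 in enterocytes (log2 -0.58 ± 0.18, edgeR adjusted p = 0.0121). This call was lost without the kit 3 library labelled ApcMin (adjusted p = 0.0655), with thinned cells (adjusted p = 0.243) and with scaling by total counts (log2 -0.12, adjusted p = 0.539). Cubn, by contrast, was at 0.52, 0.601, 1.03 and 0.419 in immature cells against 27.2, 34.5, 87.3 and 54.2 in enterocytes (log2 -6.78 ± 0.22, edgeR adjusted p = 3.03e-10). Slc51a and Slc51b changed by -3.04 and -4.06 on the log2 scale (edgeR adjusted p = 3.16e-09 and 3.40e-08), and Osr2 by -1.31 (edgeR adjusted p = 6.53e-05). The receptor and the exporter thus differed in their level in the immature class: Nr1h4 was within 1.5-fold of the enterocyte level, Slc51a was 8.21-fold and Slc51b 16.7-fold lower. The class is a gate on marker scores, and no order of the cells was measured. For Fabp6 the fit gave -1.71 ± 0.74 (edgeR adjusted p = 0.0611), but the libraries went different ways. In kit 3, immature cells held 0.199 times (0.190 to 0.207) and 0.273 times (0.261 to 0.285) the enterocyte level. These intervals are for counting error of UMIs only and do not cover the spread between cells. Of the Fabp6 UMIs, 3 and 13 immature cells held 95.8% and 96.1%, and 101 and 63 enterocytes held 99.2% and 99.3%. In kit 2, where both levels were low, immature cells held 25 and 38 UMIs against 1 and 2 in enterocytes, ratios of 14.2 (2.32 to 582) and 21.9 (5.67 to 188). The difference between kits in this change was -6.38 ± 1.07 on the log2 scale and did not pass in edgeR (adjusted p = 0.532, beside 0% of genes called and 894 at an unadjusted p under 0.05). It passed with no filter on low counts (adjusted p = 7.62e-07) and without the kit 3 library labelled ApcMin (adjusted p = 0.0487) or VApcMinL (adjusted p = 0.00792).

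**Figure D4:**
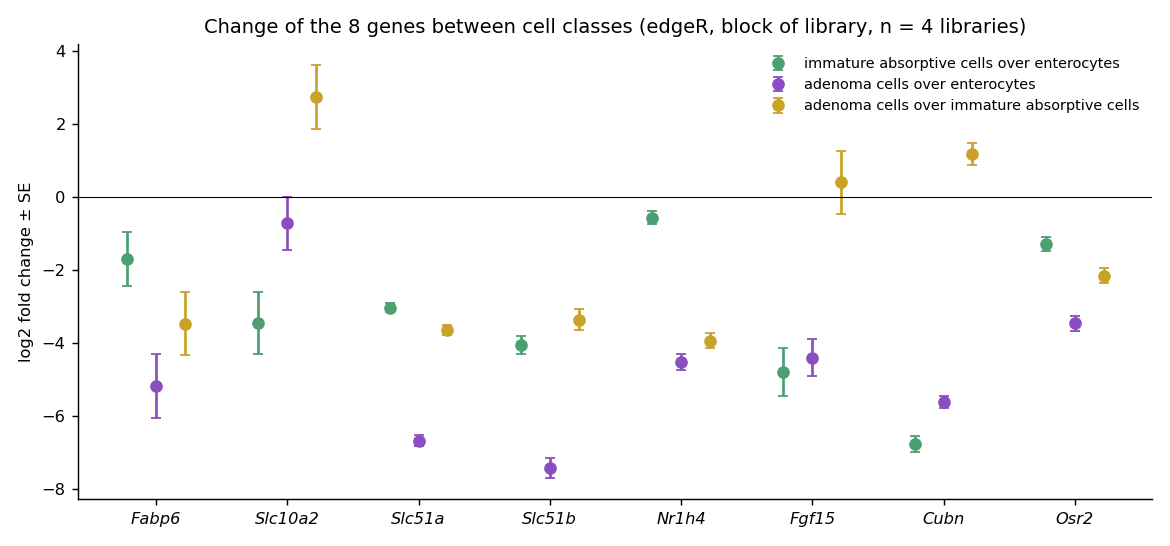
Log2 fold change (points) and its standard error (bars) of the 8 genes (horizontal axis) for 3 contrasts between cell classes, from 1 edgeR fit with a block of library, n = 4 libraries. The points of adenoma cells over enterocytes lie below 0 for all 8 genes, with the bar of Slc10a2 reaching 0, and those of adenoma over immature absorptive cells lie above 0 for Slc10a2, Cubn and Fgf15, with the bar of Fgf15 crossing 0.

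Slc10a2 was the exception among the 8. In adenoma cells it stood at 7.10, 9.72, 19.7 and 10.9 CPM, from 106, 130, 291 and 716 UMIs, so that all 4 libraries lay within 3-fold of each other. In immune cells of the same libraries it was at 0.949, 0, 0 and 1.78. Against immature absorptive cells, with 0.173, 0.12, 2.95 and 5.73, adenoma cells were higher in 4 of 4 libraries (log2 2.73 ± 0.89, edgeR adjusted p = 0.0206). Of the 8 genes, 2 were higher in this contrast, Slc10a2 and Cubn (log2 1.16 ± 0.30, edgeR adjusted p = 0.00627), and 5 were lower, beside 53.3% of all genes that changed, 28.8% that were higher and 24.5% that were lower. The Slc10a2 call was lost without the kit 2 library labelled ApcMin (adjusted p = 0.0642), without the block of library (adjusted p = 0.166) and with thinned cells (adjusted p = 0.0570). The Cubn call was lost without the kit 3 library labelled ApcMin (adjusted p = 0.121), and the levels compared, 0.643 ± 0.270 and 1.82 ± 1.46, both lie near those of immune cells.

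Against enterocytes the direction for Slc10a2 turned with the kit. Adenoma cells held 7.74 times (2.58 to 38.1) and 31.1 times (10.4 to 153) the enterocyte level in kit 2, and 0.520 times (0.455 to 0.593) and 0.268 times (0.239 to 0.300) in kit 3. These intervals are for counting error of UMIs only and do not cover the spread between cells. Over all 4 libraries the log2 difference was -0.73 ± 0.73 (edgeR adjusted p = 0.371). It passed as lower without the kit 2 library labelled VApcMinL (-1.59), with a mitochondrial limit of 10% (-1.82) and with thinned cells (-2.09), and it was above 0 with DESeq2 (0.91), with scaling by total counts (0.0594) and without either kit 3 library (0.02 and 0.23). The difference between the kits in this change, tested after the values had been seen, was -5.78 ± 0.67 on the log2 scale (edgeR adjusted p = 0.0491), and Slc10a2 was the 1 of the 8 genes called, beside 0.0452% of all genes (6 of 13266, the other 5 being Akp3, Nme7, Hnf4g, Aars and Gm10680, named after their values were seen). That call was lost with a mitochondrial limit of 10%, with cells of at least 5000 UMIs, with scaling by total counts, and without either kit 2 library (adjusted p between 0.0543 and 0.730). Fabp6 gave -7.02 ± 1.29 for the same difference (edgeR adjusted p = 0.220), and passed with no filter (adjusted p = 1.21e-06) and without the kit 3 library labelled ApcMin (adjusted p = 0.00904) or VApcMinL (adjusted p = 0.0133). Most of the difference lay on the side of enterocytes: Slc10a2 differed between kits by 6.21 on the log2 scale there and by 0.63 ± 0.38 (edgeR adjusted p = 0.559) in adenoma cells. Leaving out the Fabp6-rich adenoma cells changed its level little, to 19.1 and 10.5 CPM in kit 3.

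After thinning to 2000 UMIs, Slc10a2 was detected in 1.09%, 1.87%, 4.49% and 2.0% of adenoma cells. It was detected in 0% of immune cells in every library, which have lower depth (medians 3572 to 5144 against 17953 to 33800 UMIs before thinning). Exact 95% intervals of the adenoma shares began at 0.438%, 0.967%, 2.64% and 1.47%, and the upper bounds of the immune shares were 0.868%, 1.14%, 2.53% and 1.56%, so that the intervals met in 3 of the 4 libraries. From the unthinned sums, the ratio of Slc10a2 in adenoma over immune cells had lower bounds of 2.02, 3.60, 5.24 and 1.69. In enterocytes the shares were 0%, 0.133%, 6.89% and 6.15%. Fabp6 showed another pattern in kit 3: 12.6% and 11.3% of enterocytes, 3.43% and 1.34% of adenoma cells, and 9.72% and 3.42% of immune cells. Its share in adenoma cells was thus no higher than that in immune cells. Whether the shallower immune cells give the background of adenoma cells was not tested. Of Slc51a, 27.4%, 24.3%, 39.3% and 42.9% of enterocytes were positive, against 0.828% ± 0.350 (SD, n = 4) of immune cells and 0.844% ± 0.278 of adenoma cells.

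**Figure D5:**
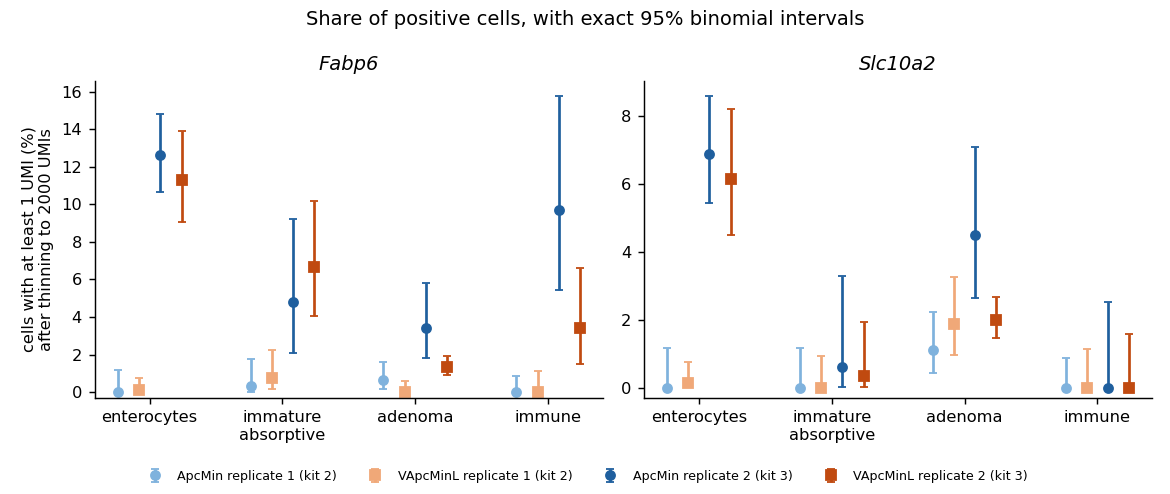
Share of cells with at least 1 UMI of Fabp6 (left) and Slc10a2 (right) after thinning each cell to 2000 UMIs (vertical axes, percent), by cell class (horizontal axes), with 1 point per library and exact 95% binomial intervals as bars. Slc10a2 is detected in adenoma cells of all 4 libraries, at 1.09% to 4.49%, and in no thinned immune cell, whereas Fabp6 in kit 3 is detected in 9.72% and 3.42% of immune and in 3.43% and 1.34% of adenoma cells.

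Without thinning, 72 of 640, 99 of 641, 98 of 379 and 392 of 2247 adenoma cells held a Slc10a2 UMI. These cells were deeper than the others, with medians of 26600, 20872, 39658 and 30178 UMIs against 20153, 17452, 29774 and 23761. A single UMI was held by 50, 79, 38 and 244 of them, and the highest cell held 28. As a description over genes, chosen after the values had been seen, 897 of 5008 genes compared were higher and 563 lower in the positive cells of all 4 libraries. Ltf, which encodes lactotransferrin, ranked first by its smallest difference, with 58.4 against 22.2, 105 against 58.5, 107 against 44.4, and 79.0 against 35.4 CPM. Among those that followed it were Adam8, Ly6d, Areg, Cldn4, Tnfrsf11b and Plat. Among the lowest in the positive cells were Dmbt1, Smoc2, Cps1, Aldh1b1, Mylk, Aqp5 and Pycard, of which Dmbt1 and Cps1 are genes of the gates. The part of depth in these differences was not tested.

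No call separated the genotypes, as labelled, for any of the 8 genes. Xist was counted far higher in both libraries labelled VApcMinL than in both labelled ApcMin. Genotype and sex, as read from Xist, therefore cannot be told apart in these comparisons. In enterocytes, 0 of 8 passed in edgeR's quasi-likelihood test with kit as a block, beside 0.00909% of all genes (Xist alone, with 123 genes at an unadjusted p under 0.05). The log2 differences of the libraries labelled VApcMinL over those labelled ApcMin ranged from -1.16 ± 0.66 for Fgf15 to 0.02 ± 0.24 for Slc51b. Those of Fabp6, Slc10a2, Slc51a, Nr1h4, Cubn and Osr2 were -0.48 ± 0.40, -0.09 ± 0.35, -0.11 ± 0.27, -0.01 ± 0.22, -0.21 ± 0.31 and -0.58 ± 0.28. Within a kit, 4 genes differed in opposite directions in kit 2 and kit 3: Fgf15 (0.77 and -1.38 on the log2 scale), Slc51a (-0.38 and 0.07), Slc51b (0.14 and -0.17) and Cubn (0.40 and -0.82), whereas Osr2 was lower in the library labelled VApcMinL in both (-1.02 and -0.26). In immature absorptive cells 0 of 6 passed, beside 0.0183% of all genes (Xist and Hbb-bt, with 370 at an unadjusted p under 0.05), with differences from -0.50 ± 0.34 for Osr2 to 0.79 ± 0.62 for Slc10a2. In adenoma cells 0 of 7 passed, beside 0% of all genes, with 37 at an unadjusted p under 0.05 and 2 called by DESeq2. Fabp6 gave the widest difference there, -1.88 ± 0.33 on the log2 scale, with an adjusted p of 1 in edgeR. It was lower in the library labelled VApcMinL in both kits (67.6 and 20.9 CPM in kit 3). In kit 3 its level was also lower there in immune cells (42.4 and 15.1) and in barcodes of 1 to 100 UMIs (505 and 309). In kit 3, 3 and 1 of the adenoma cells held 83.0% and 70.5% of the Fabp6 UMIs of the class, and in kit 2 the class held 21 and 3 such UMIs. The parts of these few cells and of Fabp6 counted outside epithelial cells in the Fabp6 difference were not tested. Slc10a2 in adenoma cells differed by -0.21 ± 0.38 between the labels, with 0.33 in kit 2 and -0.75 in kit 3. The difference between the labels in the change from enterocytes to adenoma cells passed for 0 of the 8 genes, beside 0% of all genes in edgeR's test and 468 at an unadjusted p under 0.05.

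Other genes of the same pathways changed between classes in both directions. Of 18 tested genes of bile acid handling other than the 8, 14 were lower and 2 higher in adenoma cells than in enterocytes, with a median log2 change of -2.87 beside 0.12 over all genes (edgeR). Hnf4a, a nuclear receptor of enterocyte genes, changed by -2.72 ± 0.18 and Vdr, the vitamin D receptor, by -4.77 ± 0.13. Abcb1a and Abcc2, apical exporters, changed by -3.06 ± 0.21 and -4.86 ± 0.19, and Gata6 and Gata4 by -1.0 ± 0.13 and -1.08 ± 0.19. All 6 passed, and Gata4 did not with scaling by total counts (-0.41, adjusted p = 0.0730). Over all 13266 genes tested in this contrast, 4921 (37.1%) were lower and 5651 higher. Of 15 tested cobalamin genes, 7 were lower and 6 higher, with a median of -0.25, near the split over all genes. Scaling by total counts gave 4 lower and 8 higher with a median of 0.42, beside 3009 lower and 8004 higher of all genes. Amn fell by 5.10 ± 0.21 on the log2 scale, as its partner Cubn did by 5.62, and Tcn2, which encodes the plasma carrier of cobalamin, by 3.36 ± 0.12. Cd320, the receptor for that carrier, rose by 2.83 ± 0.20, from 2.29 to 6.55 CPM in enterocytes to 37.6 to 53.2 in adenoma cells. Lrpap1, a chaperone of receptors of the LDL receptor family, rose by 1.60 ± 0.13, while Lmbrd1, of lysosomal cobalamin export, fell by 1.90 ± 0.11 and Mmadhc, of its intracellular routing, by 0.25 ± 0.10 (edgeR adjusted p = 0.0410). The direction of Mmadhc turned with scaling by total counts (0.42 ± 0.080, edgeR adjusted p = 0.000414), and its CPM was higher in adenoma cells than in enterocytes in every library. Uptake genes of the apical membrane (Cubn and Amn) thus fell in adenoma cells and the receptor for circulating cobalamin rose.

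Genes listed for either end of the small intestine were lower in adenoma cells as well. All 12 other distal genes and all 14 proximal genes were lower in adenoma cells than in enterocytes (median log2 changes of -6.37 and -6.26, edgeR). Of all genes tested, 37.1% were lower in this contrast. Clec2h, Muc3, Ggt1, Dpep1, Slc34a2 and Naaladl1 changed by -7.08 to -5.91, and Fabp1, Rbp2, Apoa4, Ces2e, Cbr1 and Onecut2 by -7.75 to -0.43. With scaling by total counts 12 of the 14 proximal genes passed as lower, without Gata4 and Onecut2, whose direction turned (0.23, adjusted p = 0.141). In immature cells against enterocytes, 12 distal and 13 proximal genes were lower, with medians of -4.60 and -4.32, beside 15 lower and 1 higher of the bile acid genes and 4 lower and 7 higher of the cobalamin genes. Of all 13266 genes, 34.3% were lower and 3882 higher there. Adenoma against immature cells gave 9 lower of the distal genes, 7 lower and 1 higher of the proximal, 13 lower and 2 higher of the bile acid and 6 lower and 3 higher of the cobalamin genes. Among all genes, 24.5% were lower and 28.8% higher in that contrast. With scaling by total counts, immature cells against enterocytes gave 12 lower and 2 higher of the bile acid and 3 lower and 9 higher of the cobalamin genes. That scaling gave 2806 lower and 5864 higher of all 13266 genes. Between kits in enterocytes, 3 of the 12 distal genes were higher in kit 3 (Plb1 by 6.81, Tmigd1 by 3.94 and Fam151a by 2.89 on the log2 scale), with a median of 0.78 beside -0.02 over all genes, and 1 of the 14 proximal genes was lower (Slc40a1, the iron exporter ferroportin, by -1.53). Of all 11003 genes tested there, 0.618% were higher and 78 lower in kit 3. No bile acid or cobalamin gene of the lists passed between kits in enterocytes. Among all 10946 genes tested in immature cells, 6.18% were higher and 622 lower in kit 3. There 3 distal genes (Clec2h, Mep1a and Naaladl1) and 2 bile acid genes (Malrd1 and Abcc2) were higher in kit 3, and Muc3 and Fabp1 were lower. Of these calls between kits, those of Slc40a1 and Fabp1 were lost with scaling by total counts, and those of Mep1a, Malrd1, Abcc2 and Muc3 with DESeq2. No gene of the 4 lists passed between genotypes in any class in edgeR's test (370 of all genes at most were at an unadjusted p under 0.05).

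Over the 12 sums of library and class, which share libraries, depth and gates, Slc51a and Slc51b had the most alike levels among the 8 (Pearson r = 0.982), and Slc10a2 was unlike them (r = -0.06 with Slc51a). Fabp6 was most like Fgf15 (r = 0.796). Among the genes outside the 8 whose log2 level was most like the mean of the 8, of 7615 genes, were Ptprd (r = 0.975), Btnl6, Lactb, Lap3, Ctage5, Sptlc2, Golga1, Snx9 and Net1 (r = 0.944). By level within a class, the libraries rank kit 3 above kit 2 in enterocytes for Fabp6, Slc10a2, Slc51a, Slc51b, Nr1h4, Fgf15 and Cubn, though Fabp6, Slc10a2 and Fgf15 alone differed past the test, and in no single order for Osr2 (47.4, 22.4, 43.0 and 39.4 CPM).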

How the data were processed

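The deposited matrices hold UMI counts per gene and barcode, which the authors made with Cell Ranger (version 2.1.1) on GRCm38 (mm10), per the submitters' processing notes. They also list Seurat 3.1.1. The kit 2 matrices list 27998 genes and the kit 3 matrices 31053. The 27514 genes shared were used, and the others held at most 0.568% of UMIs. Whether the kit 3 libraries had the same Cell Ranger version is not given in the sources used here.

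Barcodes with at least 2000 UMIs and at most 20% mitochondrial UMIs were kept. Doublets were left in, and Scrublet (scanpy 1.11.5) removed 34 to 142 cells per library in an alternative. Classes were gated on summed marker UMIs per 10000, with score limits set from the scores alone: at least 20 of epithelial markers, under 20 of immune, 10 of stromal and endothelial, 20 of goblet, 30 of Paneth and 5 each of enteroendocrine and tuft markers, then 40 of enterocyte, 4 of adenoma or 15 of immature absorptive markers. Immune cells had at least 40 of immune markers. Raw counts were summed per library and class and tested with edgeR 4.0.16 (quasi-likelihood, TMM, minimum count 10, Benjamini-Hochberg adjustment, threshold 0.05) in R 4.3.3. Genotypes were compared with the kit as a block and classes with the library as a block. The replicate number in the labels marks the kit, which pairs the libraries. Deviations of same-numbered libraries from their group means correlated with r = 0.442, 0.593 and 0.193 over genes in enterocytes, immature and adenoma cells, with only 2 pairs. The fits were tested on simulated counts.

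Levels are CPM, the UMIs of a gene for 1000000 UMIs of a class, with exact intervals for counting error only. Since tags are read at the 3′ end, no gene length was applied and each gene was compared with itself. Shares were taken after thinning each cell to 2000 UMIs.

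The 8 genes and the lists were chosen with earlier results of these data known. By rule, the text names the 8 genes, Lef1, the 6 genes of each list with the highest mean level, and the 10 genes most like the mean of the 8 with at least 20 CPM in 1 of the 12 sums. Some names under this rule are not reported here. Other names were chosen after their values were seen, as were the comparisons of kits and the Fabp6-rich rule. Alternatives were DESeq2 1.42.0, no filter on low counts, no block, each library left out, a 10% mitochondrial limit, at least 5000 UMIs, stricter gates (2 times the limits), the enterocyte markers of the study, thinned cells, Scrublet and, added after the data had been seen, scaling by total counts in place of TMM.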

Additional observations from a re-analysis of the deposited data

Results flagged for a closer look

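Slc10a2 was flagged because its change from enterocytes to adenoma cells differed between the kits by a test of the difference itself: -5.78 ± 0.67 on the log2 scale (edgeR's quasi-likelihood test, Benjamini-Hochberg adjusted p = 0.0491). Adenoma cells held more Slc10a2 than enterocytes in 2 of 2 kit 2 libraries and less in 2 of 2 kit 3 libraries. The adjusted p was 0.0799 with a mitochondrial limit of 10%, 0.0543 with at least 5000 UMIs, 0.116 with scaling by total counts, 0.434 without the kit 2 library labelled ApcMin and 0.730 without the kit 2 library labelled VApcMinL. The comparison of kits was chosen after the values had been seen, and the kit, the mice and the place of the tumors cannot be told apart.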

How the results depend on the processing

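With stricter gates, 7 of the 8 genes were again lower in adenoma cells than in enterocytes. Depth limits what low levels can show: in kit 2 enterocytes 3 UMIs correspond to 0.918 and 0.312 CPM. With 1 library left out, the comparisons of genotypes and of kits within a class had too few libraries to be tested, and only their values were computed. Of the changes of the 8 genes under other settings, 733 stayed on the same side of the threshold or, with no test, within 1 SE, 102 with no test moved by more, 23 gained a call, 20 lost one and 15 tested values turned direction. With 1 library left out, 36 values of genotypes or kits within a class, which had no test, also changed sign, to between -0.80 and 0.80. Where no cause is stated, it was not tested.

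The pairing by kit touched few counts. Without the replicate block, genotype calls in enterocytes and in immature absorptive cells went from 1 and 2 to 0, and it changed no other genotype call. With no filter on low counts, calls between genotypes numbered 31 in enterocytes, 7 in immature and 1 in adenoma cells, between kits 746 in enterocytes and 151 in adenoma cells, and for the differences of class changes 85 between genotypes and, between kits, 73 (adenoma) and 18 (immature). Scaling by total counts gave 1 genotype call in adenoma cells. DESeq2 gave 2 genotype calls in adenoma cells and 265, 464 and 420 kit calls in enterocytes, immature and adenoma cells. Cells thinned to 2000 UMIs, and so with fewer counts, gave 7 and 1 genotype calls in enterocytes and adenoma cells, 475, 280 and 80 kit calls in the 3 classes, 5416 for immature cells against enterocytes, 3475 for adenoma against immature cells, and 2 for the difference between kits in the adenoma change. That difference gave 0 calls with a 10% mitochondrial limit, 2 with scaling by total counts, 2 with at least 5000 UMIs and 10 with the enterocyte markers of the study. Genotype calls in immature cells fell to 1 with the 10% limit and with stricter gates, which gave 709 kit calls there, and Scrublet gave 285 kit calls in enterocytes. Leaving out 1 library gave 0 to 13 calls for the difference between genotypes (13 without the kit 2 library labelled VApcMinL), and 0 to 37 (37 without the kit 3 library labelled VApcMinL) and 0 to 15 (15 without the same library) for those between kits in the adenoma and immature changes.

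Tested directions turned as follows, on the log2 scale. Between genotypes in enterocytes, Nr1h4 was 0.0334 with at least 5000 UMIs and 0.0233 with Scrublet, Slc10a2 was 0.22 with stricter gates and 0.00092 with Scrublet, and Slc51b was -0.0144 with no filter and -0.0481 with the 10% limit. In immature cells, Slc51b was -0.38 with thinned cells and Fabp6 -0.0468 with stricter gates and -0.33 with thinned cells. Slc51a in adenoma cells was 0.20 with the 10% limit. For adenoma cells against enterocytes, Slc10a2 was 0.91 with DESeq2, 0.0594 with scaling by total counts and 0.02 and 0.23 without the kit 3 library labelled ApcMin or VApcMinL, in a range of -1.59 to 0.23 over the 4 libraries left out. For adenoma against immature cells, Cubn was -0.19 with thinned cells.

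Beside the lost calls given with the results, those of Slc10a2 for immature cells against enterocytes with the markers of the study (adjusted p = 0.0688), of Cubn for adenoma against immature cells without the block (adjusted p = 0.144) and with the 10% limit (adjusted p = 0.117), and of Fabp6 there without the block (adjusted p = 0.274) were lost, all in edgeR. Fabp6 for immature cells against enterocytes passed with the 10% limit, with no filter, with thinned cells and without either kit 2 library, and Slc51b between kits in immature cells with no filter and with scaling by total counts.

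Mean shares of positive cells without thinning, in enterocytes, immature and adenoma cells, were 13.9%, 20.6% and 13.2% for Fabp6, 7.63%, 2.27% and 17.5% for Slc10a2, 81.4%, 41.7% and 7.24% for Slc51a, 72.5%, 16.7% and 3.54% for Slc51b, 30.9%, 41.0% and 4.56% for Nr1h4, 1.81%, 0.537% and 0.270% for Fgf15, 27.3%, 1.72% and 4.63% for Cubn, and 36.0%, 30.8% and 11.9% for Osr2. With the 10% limit, the thinned shares of Slc10a2 and Fgf15 in enterocytes were 7.55% and 2.22%. With the markers of the study, those of Slc10a2 and Cubn in immature cells were 0.894% and 0.890%.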
